A study of Danio rerio with 12 samples.

Results

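The genes described here encode the machinery of fatty acid oxidation in the zebrafish heart, with its transport steps and its best known regulators. They were chosen by name from a list of 37 symbols covering 8 roles, and 36 of them were rows of the expression table, which holds 24782 genes; eci2 was not among the rows and was not analysed here. Expression was given as FPKM, a count of fragments corrected for transcript length and for the total of the library, and was compared as log2(FPKM + 1). Of the 36 genes, 34 averaged at least 1 FPKM over the libraries and were tested together with 13969 genes in all.

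Whole hearts were collected 7 days after an operation on the ventricle of fish aged 6 to 12 months. The operation was either cryoinjury, in which a probe chilled in liquid nitrogen kills part of the ventricle wall, or a sham operation in which the heart was exposed and not touched by the probe. Both were done in yap -/- fish (mutant) and in yap +/+ fish (wild type), giving mutant cryoinjury, mutant sham, wild-type cryoinjury and wild-type sham hearts with 3 libraries each. Yap is a transcriptional co-activator restrained by the Hippo pathway, and the design asks how its loss bears on the injured and the uninjured heart. The labels name neither the mutant allele nor its tissue range, and they do not say whether a library came from a single fish or whether replicates were separate animals, so the p-values reflect only how far these libraries spread, which may be technical.

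Heart muscle takes most of its energy from long-chain fatty acids. A fatty acid is bound by a carrier protein in the cytosol, activated to an acyl-CoA, passed into the mitochondrion as an acylcarnitine, and shortened by repeated rounds of dehydrogenation, hydration, a further dehydrogenation and thiolysis, which release acetyl-CoA and feed electrons to the respiratory chain. In mammals the nuclear receptor PPAR alpha and its co-activator PGC-1 alpha raise transcription of many of these enzymes, and the pathway is known to be lowered in injured and failing hearts.

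The libraries differed in ways that touch these genes. The yap1 mRNA was between 10.1 and 14.4 FPKM in the 6 mutant libraries, against 18.8 to 29.8 FPKM in the 6 wild-type libraries, with no overlap. Ribosomal protein mRNAs made up 32.2% of the summed FPKM in mutant cryoinjury 2 and 39.0% in mutant sham 1, against 13.3% to 20.6% in the other 10 libraries. Those 2 libraries also held the least mRNA of the fatty acid oxidation genes, whose summed FPKM was 1382 in mutant cryoinjury 2 and 2057 in mutant sham 1, against 2405 to 4255 in the others. The part of the ribosomal share in the results was not tested; results are therefore also given without both libraries. Depth is not given with FPKM values, but the smallest steps between low values gave the relative depth of each value column. It lay between 0.663 and 1.2 of that of wild-type sham 1. The lowest, 0.663 and 0.694, were the 2 columns averaged into mutant sham 3, and mutant cryoinjury 1 came next at 0.813. The heart muscle markers were present in every library: the most abundant, myl7, a myosin light chain, was between 14277 and 26207 FPKM in mutant libraries, against 15625 to 34202 FPKM in wild-type libraries.

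Most of the fatty acid oxidation genes stood lower in mutant hearts than in wild-type hearts, both after sham operation and after cryoinjury, and in wild type most stood lower after cryoinjury than after sham operation. In mutants most did so too, but that count depended on which mutant libraries were included. No single gene passed the test across all genes in any of the comparisons (limma, Benjamini-Hochberg adjusted p under 0.05). Among sham hearts, 32 of the 34 tested genes had a log2 difference below 0 in mutants relative to wild type, against 41.3% of all tested genes, and the median difference was -0.47 against 0.07 over all genes. Among cryoinjured hearts it was 30 of 34, against 64.9% of all genes, with a median of -0.57 against -0.11. For cryoinjury relative to sham, 29 of 34 were below 0 in mutants, against 47.5% of all genes, and the median was -0.26 against 0.01; without mutant cryoinjury 2 it was 14 of 35, with a median of 0.04, and without mutant sham 3 it was 21 of 35, with a median of -0.05. In wild type the same comparison had 31 of 34 below 0, against 25.7% of all genes, with a median of -0.29 against 0.19. Averaged over both injury states, 30 of 34 were below 0 in mutants relative to wild type, against 53.9% of all genes, with a median of -0.50 against -0.03. Averaged over both genotypes, 30 of 34 were below 0 after cryoinjury, against 32% of all genes, with a median of -0.31 against 0.10. The 4 comparisons of 2 groups share groups, so their counts are not independent of each other.

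**Figure D1:**
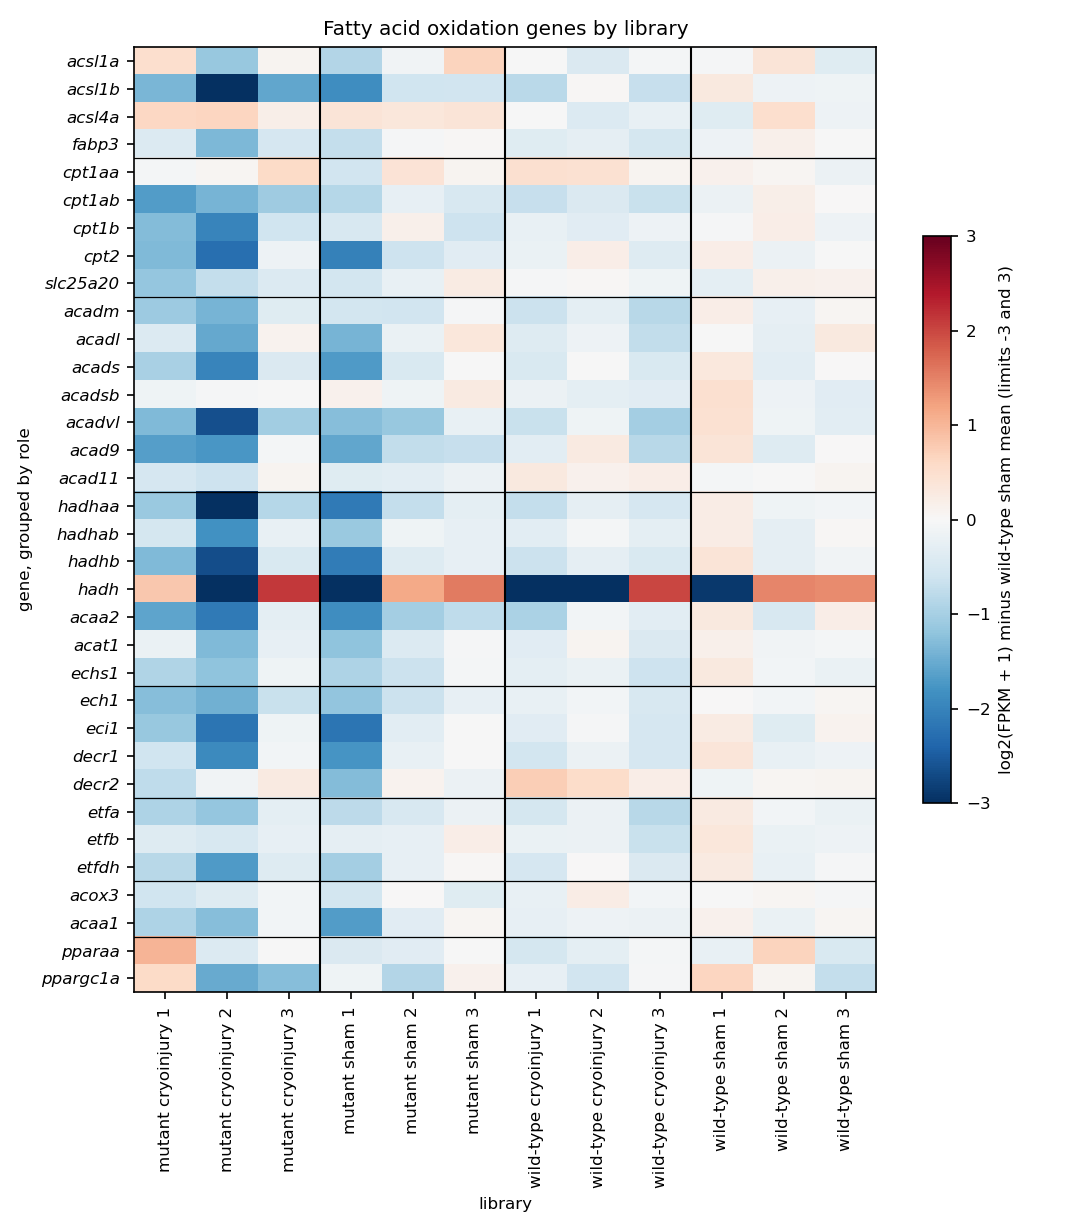
Each row is a fatty acid oxidation gene, ordered by role, and each column a library; the colour is log2(FPKM + 1) minus the gene's mean in wild-type sham hearts. Mutant cryoinjury 2 and mutant sham 1 stand out as columns of low values across most rows, and their medians over the genes were -1.43 and -1.08.

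Adjusted calls in the whole table varied with the libraries used. No gene of the 13969 was called in any of the 4 comparisons of 2 groups (0.00% each) or in the difference between the injury responses. Averaging the 2 genotypes, 9 genes were called for injury (0.0644%), and averaging the 2 injury states, 1 gene was called for genotype (0.00716%); none was a fatty acid oxidation gene. Leaving out single libraries moved the count for injury over both genotypes between 1 (without mutant sham 3 or wild-type cryoinjury 1) and 428 (without mutant sham 2), and that for injury in wild type up to 18 (without mutant sham 1). At an unadjusted limma p under 0.05, 8 of the 34 genes were lower in mutant than in wild-type cryoinjured hearts, against 3.81% of all genes, and 1 was higher, against 1.22%. Among sham hearts 4 were lower in mutants, against 1.95%, and none higher, against 4.04%. For injury, 3 were lower in mutants, against 1.12%, and 1 in wild type, against 0.816%, with none higher, against 1.99% and 7.85%. Over both injury states 15 of the 34 genes were lower in mutants, against 5.06% of all genes, and 1 was higher, against 4.6%. Those 15 included cpt2 (log2 difference -1.05), hadhb (-0.96), acads (-0.77), decr2 (-0.58, or -0.36 without mutant sham 1) and etfdh (-0.54). Exact permutation within injury state gave p = 0.02 for cpt2, 0.04 for hadhb and for acads, 0.06 for decr2 and 0.07 for etfdh. The lowest adjusted limma p of any of the 34 genes in that comparison was 0.262. Over both genotypes 5 were lower after cryoinjury, against 1.46%, and none higher, against 8.24%. These counts moved as single libraries were left out: from 5 (without mutant cryoinjury 2) to 20 (without mutant cryoinjury 3) for genotype in cryoinjured hearts, and from 0 (without mutant sham 1 or wild-type sham 3) to 11 (without mutant sham 3) for genotype in sham hearts. For injury they ran from 1 (without mutant cryoinjury 2) to 9 (without mutant sham 1) in mutants, from 0 to 3 (without wild-type cryoinjury 2) in wild type, and from 3 to 13 (without mutant sham 1) over both genotypes. For genotype over both injury states they ran from 10 (without mutant sham 1 or wild-type cryoinjury 2) to 23 (without mutant cryoinjury 3).

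Separation of whole groups was counted as well. All 3 mutant libraries lay below all 3 wild-type libraries for 8 genes among sham hearts, against 3.18% of all tested genes, and for 8 among cryoinjured hearts, against 12.6%. Wholly above wild type lay none among sham hearts, against 7.01%, and 2 among cryoinjured hearts, against 3.06%. All 3 cryoinjury libraries lay below all 3 sham libraries for 1 gene in mutants, against 2.05%, and for 5 in wild type, against 3.44%. Above sham lay none in mutants, against 2.05%, and 2 in wild type, against 24.3%. Of all 13969 genes, 1 gene (0.00716%) was lower with no overlap in all 4 of these comparisons, and it was cpt1ab.

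**Figure D2:**
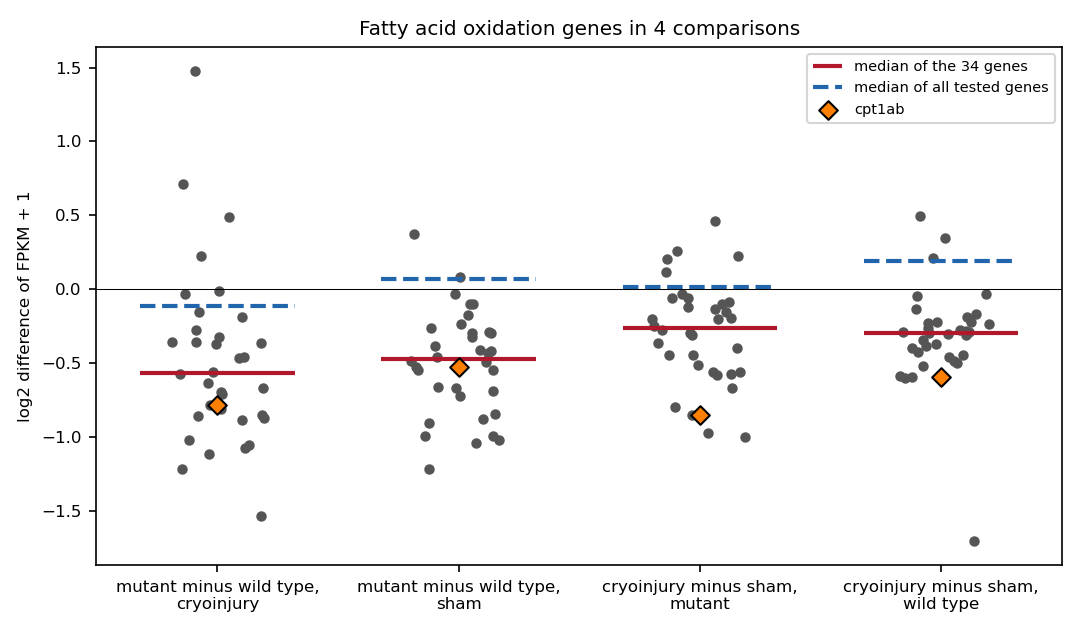
Points are the 34 tested fatty acid oxidation genes, with the log2 difference of FPKM + 1 on the vertical axis, for genotype and for injury in the 4 comparisons of 2 groups; lines give the medians of these genes and of all tested genes, and diamonds mark cpt1ab. The genes' medians lie at -0.57 after cryoinjury and -0.47 after sham operation for genotype and at -0.26 in mutants and -0.29 in wild type for injury, each below that of all genes.

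Carnitine carries long acyl chains across the mitochondrial membranes, and the gene that separated the groups most fully belongs to this shuttle. Carnitine palmitoyltransferase 1, in the outer membrane, forms the acylcarnitine and is the step at which malonyl-CoA restrains entry; the mammalian liver form is the counterpart of cpt1aa and cpt1ab, and the mammalian muscle form of cpt1b. The transcript cpt1ab was at 25.5, 30.7 and 39.2 FPKM in mutant cryoinjury hearts and at 45.4, 70.0 and 59.3 FPKM in mutant sham hearts. In wild-type hearts it was at 51.1, 61.4 and 52.2 FPKM after cryoinjury and at 72.7, 93.5 and 84.0 FPKM after sham operation. Every cryoinjury library was below every sham library of its genotype, and every mutant library below every wild-type library of its injury state. The group means were 31.8 ± 6.94 and 58.2 ± 12.3 FPKM in mutant cryoinjury and mutant sham hearts, and 54.9 ± 5.68 and 83.4 ± 10.4 FPKM in wild-type cryoinjury and wild-type sham hearts (SD, n = 3 each).

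The log2 difference of cpt1ab between mutant and wild type was -0.79 ± 0.22 (SE) among cryoinjured hearts, with an adjusted limma p of 0.873. Among sham hearts it was -0.52 ± 0.22, with an adjusted p of 0.797. For cryoinjury against sham it was -0.85 ± 0.22 in mutants (adjusted p = 1) and -0.59 ± 0.22 in wild type (adjusted p = 0.522). Averaged over genotypes, cryoinjury against sham gave -0.72 ± 0.16 with an adjusted limma p of 0.163, the lowest adjusted p of any fatty acid oxidation gene. Rescaling the libraries by the median of ratios made that -0.88 with an adjusted p of 0.0436. Weighting libraries by how closely they followed their group means in these same data made it -0.73 with 0.0222. Within mutant sham hearts those weights ran from 0.212 (library 1) to 2.82 (library 3). The call of cpt1ab thus depends on such choices, and over all alternatives the adjusted p ran from 0.0222 to 0.429. An exact two-sided permutation of labels within genotype, and another within injury state, each gave cpt1ab p = 0.005, the smallest that 400 arrangements allow. That p follows from the lack of overlap described above.

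The muscle-type cpt1b was at 14.5, 8.68 and 24.4 FPKM in mutant cryoinjury hearts, against 31.8, 29.5 and 33.3 FPKM in wild-type cryoinjury hearts, with no overlap. In sham hearts it was at 26.3, 41.4 and 23.9 FPKM in mutants, against 36.2, 42.9 and 33.5 FPKM in wild type, and those ranges overlapped. Its log2 difference between mutant and wild type was -1.06 ± 0.32 among cryoinjured hearts (limma, adjusted p = 0.873), and between cryoinjury and sham -0.97 ± 0.32 in mutants (adjusted p = 1; -0.63 without mutant cryoinjury 2). The low-level cpt1aa, at 3.21 to 5.60 FPKM in mutant cryoinjury and 1.94 to 4.87 FPKM in mutant sham hearts, against 3.70 to 5.16 FPKM in wild-type cryoinjury and 2.88 to 3.80 FPKM in wild-type sham hearts, did not share this order. Summed, the 3 cpt1 transcripts reached 43.1, 43.0 and 69.2 FPKM in mutant cryoinjury hearts and 73.7, 116 and 86.8 FPKM in mutant sham hearts, against 88.0 to 96.1 FPKM in wild-type cryoinjury and 113 to 140 FPKM in wild-type sham hearts. Of that sum cpt1ab made up 56.7% to 71.4% in every library, so per length the predominant cpt1 mRNA of these hearts was cpt1ab. The share of cpt1aa was 7.44% to 8.42% in mutant cryoinjury hearts and 2.63% to 4.21% in mutant sham hearts, against 4.15% to 5.86% in wild-type cryoinjury and 2.39% to 3.37% in wild-type sham hearts; this ratio was chosen after its values were seen and is given as a description.

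The inner-membrane steps of the shuttle also stood lower in mutants after injury. The translocase slc25a20, which exchanges acylcarnitine for free carnitine, was at 13.3, 18.5 and 23.1 FPKM in mutant cryoinjury hearts, against 30.1, 31.4 and 28.0 FPKM in wild-type cryoinjury hearts, a log2 difference of -0.71 ± 0.25 (limma, adjusted p = 0.873). In sham hearts its range was 20.8 to 36.8 FPKM in mutants, against 25.1 to 34.3 FPKM in wild type, so the groups overlapped, and cryoinjury against sham in mutants was -0.58 ± 0.25 (limma, adjusted p = 1; -0.37 without mutant sham 3 and -0.38 without mutant cryoinjury 1). Carnitine palmitoyltransferase 2, which returns the chain to CoA, is encoded by cpt2. It was at 7.86, 3.66 and 18.9 FPKM in mutant cryoinjury hearts and 4.4, 13.5 and 16.5 FPKM in mutant sham hearts, against 18.4, 24.4 and 15.9 FPKM in wild-type cryoinjury and 24.5, 18.6 and 20.9 FPKM in wild-type sham hearts. The lowest mutant values of cpt2 were those of the 2 ribosome-rich libraries, and mutant cryoinjury 3 lay within the wild-type cryoinjury range, while in sham hearts no mutant library reached a wild-type one. Among cryoinjured hearts the log2 difference of cpt2 was -1.11 ± 0.51 (limma, adjusted p = 0.873), or -0.61 without mutant cryoinjury 2.

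**Figure D3:**
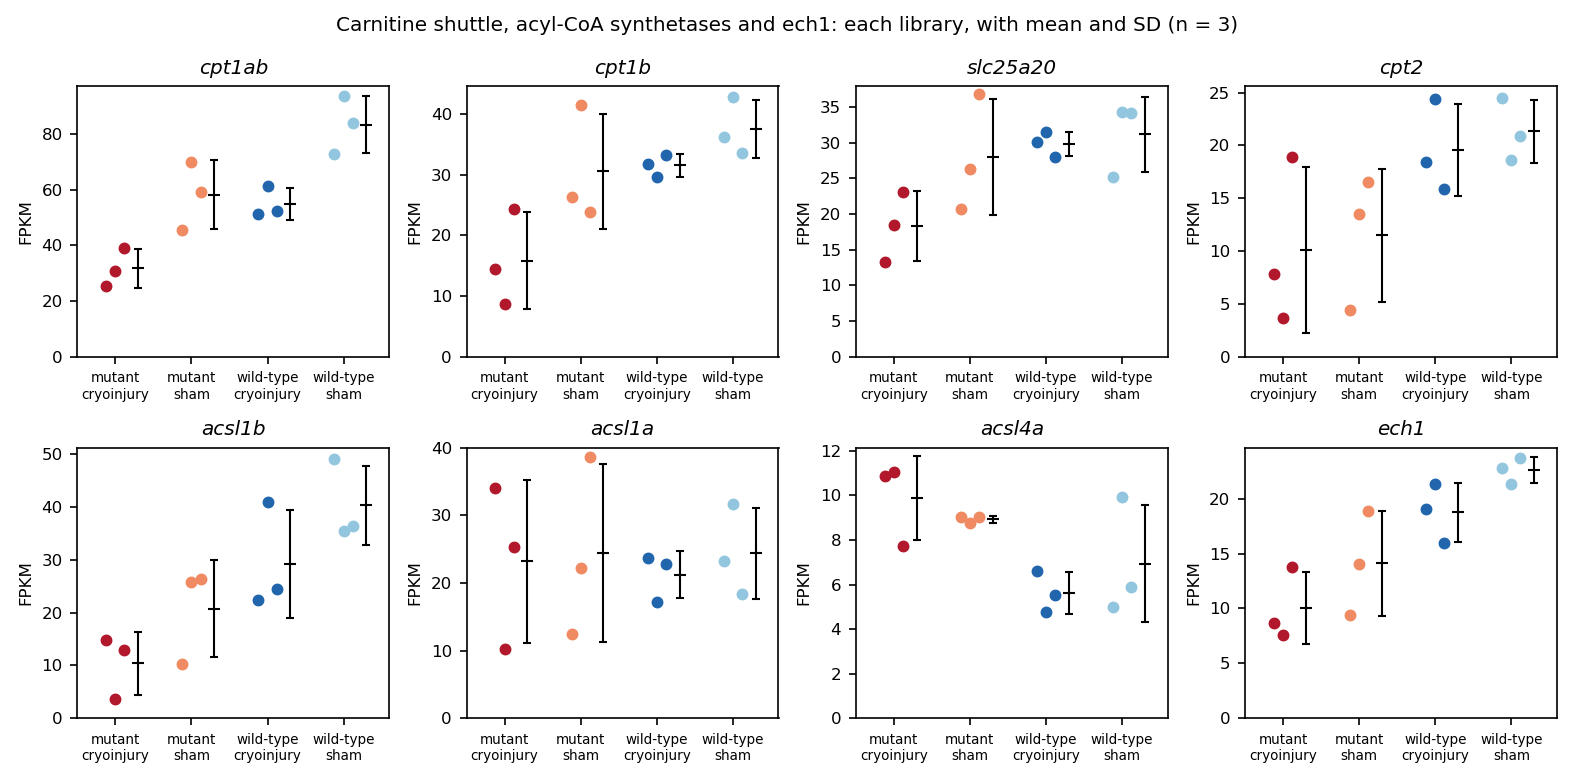
FPKM of carnitine shuttle genes, acyl-CoA synthetases and ech1 in each library (points), with the mean and SD of each group (n = 3). For cpt1ab the mutant cryoinjury libraries, at 25.5 to 39.2 FPKM, lie below all others, and the wild-type sham libraries, at 72.7 to 93.5 FPKM, above all others.

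Activation and carriage of fatty acids held members that went opposite ways between genotypes. The long-chain acyl-CoA synthetase gene acsl1b was at 14.8, 3.68 and 12.8 FPKM in mutant cryoinjury hearts, against 22.3, 40.9 and 24.4 FPKM in wild-type cryoinjury hearts. In sham hearts it was at 10.2, 25.8 and 26.3 FPKM in mutants, against 49.0, 35.5 and 36.4 FPKM in wild type. In either injury state no mutant library reached a wild-type one. The log2 difference was -1.53 ± 0.47 among cryoinjured hearts (limma, adjusted p = 0.873; -0.98 without mutant cryoinjury 2) and -1.28 ± 0.33 over both injury states (adjusted p = 0.302), with an exact permutation p of 0.005. Without the 2 ribosome-rich libraries the difference over both states was -0.79 with an adjusted p of 0.231.

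Its paralog acsl1a showed no such separation, at 10.3 to 34.05 FPKM in mutant cryoinjury and 12.5 to 38.6 FPKM in mutant sham hearts, against 17.3 to 23.6 FPKM in wild-type cryoinjury and 18.3 to 31.6 FPKM in wild-type sham hearts. Within a library, the ratio of acsl1a to acsl1b was 2.30, 2.80 and 1.97 in mutant cryoinjury hearts and 1.23, 0.857 and 1.47 in mutant sham hearts. In wild-type hearts it was 1.06, 0.422 and 0.933 after cryoinjury and 0.474, 0.890 and 0.503 after sham operation. Mutant cryoinjury libraries thus held more acsl1a than acsl1b mRNA per length, and wild-type sham libraries less. A ratio within a library does not depend on the scaling of that library; this one was chosen after its values were seen and carries no test. How reads were divided between the paralogs is not stated in the labels.

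The synthetase gene acsl4a, whose mammalian counterpart prefers arachidonate and related polyunsaturated chains, had the highest genotype difference of all members over both injury states, 0.54 ± 0.17 (limma, adjusted p = 0.393). It was at 10.9, 11.1 and 7.72 FPKM in mutant cryoinjury hearts, against 6.61, 4.75 and 5.52 FPKM in wild-type cryoinjury hearts, with no overlap and a log2 difference of 0.71 ± 0.24 (limma, adjusted p = 0.873). In sham hearts it was at 9.03, 8.75 and 9.03 FPKM in mutants, against 5.0, 9.94 and 5.87 FPKM in wild type, where 1 wild-type library lay above the mutants. A further synthetase gene, acsl5, was between 0 and 0.12 FPKM in every library and was not tested. The heart-type fatty acid binding protein gene fabp3 was by far the most abundant member, with 27.6% to 41.2% of the summed FPKM of these genes. It was at 990, 515 and 919 FPKM in mutant cryoinjury and 799, 1275 and 1340 FPKM in mutant sham hearts, against 1022, 1082 and 903 FPKM in wild-type cryoinjury and 1172, 1460 and 1302 FPKM in wild-type sham hearts. In wild type its cryoinjury libraries lay below its sham libraries, and in mutants they overlapped; the exact permutation over both genotypes gave p = 0.04.

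Acyl-CoA dehydrogenases open each round of oxidation, and each takes a range of chain lengths. The very-long-chain enzyme, acadvl, was at 129, 51.4 and 157 FPKM in mutant cryoinjury hearts, against 205, 300 and 162 FPKM in wild-type cryoinjury hearts, without overlap but with the nearest values 157 and 162 FPKM. In sham hearts it was at 134, 148 and 281 FPKM in mutants, against 449, 298 and 261 FPKM in wild type. The log2 difference between genotypes was -1.08 ± 0.43 after cryoinjury (limma, adjusted p = 0.873; -0.59 without mutant cryoinjury 2) and -0.98 ± 0.31 over both injury states (adjusted p = 0.393). The medium-chain enzyme, acadm, was at 190, 153 and 315 FPKM in mutant cryoinjury and 275, 270 and 398 FPKM in mutant sham hearts, against 258, 331 and 227 FPKM in wild-type cryoinjury and 461, 342 and 420 FPKM in wild-type sham hearts. In wild type its cryoinjury and sham libraries did not overlap, and over both genotypes the injury difference was -0.57 ± 0.21 (adjusted p = 0.38).

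Further members of this family stood lower in mutants at low levels. The gene acad11, whose mammalian product acts on long chains, was at 2.62, 2.35 and 4.43 FPKM in mutant cryoinjury and 3.02, 3.13 and 3.52 FPKM in mutant sham hearts, against 5.34, 4.66 and 4.90 FPKM in wild-type cryoinjury and 3.93, 4.11 and 4.41 FPKM in wild-type sham hearts. Mutant and wild type did not overlap in either injury state, and in wild type acad11 lay above sham after cryoinjury. Its genotype difference was -0.56 ± 0.20 after cryoinjury (limma, adjusted p = 0.873). The gene acad9, whose human product is also an assembly factor of respiratory complex I, was at 4.17, 8.15 and 8.40 FPKM in mutant sham hearts, against 18.7, 10.7 and 14.2 FPKM in wild-type sham hearts, a difference of -0.99 ± 0.45 (adjusted p = 0.797). After cryoinjury it was at 3.53 to 13.6 FPKM in mutants, against 7.58 to 17.2 FPKM in wild type, with overlap.

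The remaining dehydrogenases overlapped more. The short-chain enzyme, acads, was at 13.3 to 40.4 FPKM in mutant cryoinjury and 16.1 to 54.6 FPKM in mutant sham hearts, against 39.5 to 54.5 FPKM in wild-type cryoinjury and 44.1 to 68.3 FPKM in wild-type sham hearts. The long-chain enzyme, acadl, ranged from 27.5 to 104 FPKM in mutant libraries, against 48.7 to 100 FPKM in wild-type libraries. The gene acadsb, whose product serves short branched chains from amino acids and so stands beside fatty acid oxidation proper, was at 30.5, 32.8 and 33.3 FPKM in mutant cryoinjury hearts, against 29.4, 26.9 and 26.0 FPKM in wild-type cryoinjury hearts. It was the only other member besides acsl4a to lie wholly above wild type there.

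The later steps of a round are carried out for long chains by the mitochondrial trifunctional protein, whose alpha subunits are encoded by hadhaa and hadhab and whose beta subunit by hadhb. The alpha subunit gene hadhaa was at 58.0, 13.2 and 70.5 FPKM in mutant cryoinjury and 28.6, 77.4 and 103 FPKM in mutant sham hearts, against 77.4, 105 and 88.9 FPKM in wild-type cryoinjury and 148, 117 and 119 FPKM in wild-type sham hearts. Mutant and wild-type libraries did not overlap in either injury state, and the log2 difference over both was -1.13 ± 0.40 (limma, adjusted p = 0.427; exact permutation p = 0.005). The lowest hadhaa values were those of the 2 ribosome-rich libraries. Among sham hearts its log2 difference between genotypes was -1.04, or -0.51 without both of these libraries. Its paralog hadhab overlapped in all 4 comparisons, at 30.2 to 99.7 FPKM in mutant libraries, against 86.2 to 126 FPKM in wild-type libraries. The ratio of hadhaa to hadhab within a library was 0.777, 0.436 and 0.766 in mutant cryoinjury and 0.580, 0.776 and 1.13 in mutant sham hearts, against 0.898, 1.01 and 1.01 in wild-type cryoinjury and 1.17, 1.29 and 1.07 in wild-type sham hearts. Also chosen after the values were seen, it is a description only. The beta subunit gene hadhb was at 105, 40.6 and 190 FPKM in mutant cryoinjury and 60.8, 201 and 220 FPKM in mutant sham hearts, against 166, 219 and 189 FPKM in wild-type cryoinjury and 342, 216 and 244 FPKM in wild-type sham hearts, so that its lowest values were again in the 2 ribosome-rich libraries.

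The hydroxyacyl-CoA dehydrogenase gene hadh, which serves short and medium chains, stood apart from the other members in its spread. It was at 35.5, 0.73 and 89.6 FPKM in mutant cryoinjury and 0.33, 45.1 and 60.2 FPKM in mutant sham hearts, against 0.66, 0.89 and 82.95 FPKM in wild-type cryoinjury and 1.81, 57.0 and 55.4 FPKM in wild-type sham hearts. Thus 5 libraries, spread over all 4 groups, lay at 0.33 to 1.81 FPKM and the other 7 at 35.5 to 89.6 FPKM, a 19.6-fold gap with no library in between. Its SD within groups was 2.96 on the log2 scale, and 2 of the 13969 tested genes had a larger one. The low libraries followed neither genotype nor injury and were not those of low hadhaa or hadhb alone, since wild-type cryoinjury 1 and 2 had 77.4 and 105 FPKM of hadhaa. A gene of the wider pathway list, acot13, had a similar gap. It was at 0.8, 1.89, 1.24 and 1.22 FPKM in mutant cryoinjury 2, mutant sham 1, wild-type cryoinjury 2 and wild-type sham 1. In the other libraries, wild-type cryoinjury 1 among them, acot13 was at 23.3 to 52.5 FPKM. The difference of hadh between any 2 groups was within the spread of its libraries, and no group mean is read here.

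**Figure D4:**
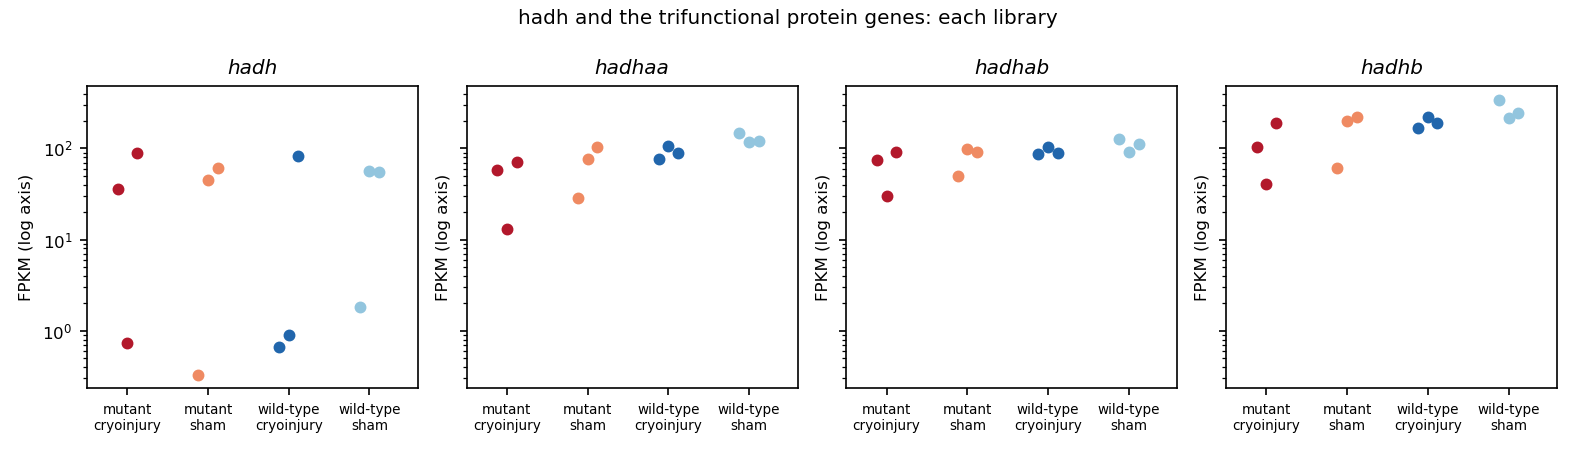
FPKM of hadh and of the trifunctional protein genes in each library, on a log axis. The 5 libraries with hadh at 0.33 to 1.81 FPKM come from all 4 groups, while hadhaa, hadhab and hadhb lie at 13.2 FPKM or more in every library.

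The other enzymes of hydration and thiolysis stood lower in mutants, with overlap except for acaa2 in sham hearts. The mitochondrial thiolase gene acaa2 was at 15.3, 28.4 and 34.4 FPKM in mutant sham hearts, against 71.8, 41.9 and 67.3 FPKM in wild-type sham hearts, a log2 difference of -1.22 ± 0.45 (limma, adjusted p = 0.797). After cryoinjury it was at 18.9, 12.7 and 47.8 FPKM in mutants, against 30.2, 55.4 and 46.8 FPKM in wild type, and the groups overlapped. The enoyl-CoA hydratase gene echs1 ranged from 55.8 to 124 FPKM in mutant libraries, against 84.2 to 160 FPKM in wild-type libraries. The acetoacetyl-CoA thiolase gene acat1, which also serves ketone bodies, ranged from 36.0 to 89.2 FPKM in mutant libraries, against 66.8 to 101.35 FPKM in wild-type libraries.

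Unsaturated chains need auxiliary enzymes, of which ech1, the gene of a dienoyl-CoA isomerase, separated the genotypes most fully. It was at 8.69, 7.61 and 13.8 FPKM in mutant cryoinjury hearts, against 19.1, 21.3 and 15.9 FPKM in wild-type cryoinjury hearts. In sham hearts it was at 9.37, 14.1 and 18.9 FPKM in mutants, against 22.8, 21.3 and 23.7 FPKM in wild type. No mutant library reached a wild-type library of its injury state, while cryoinjury and sham overlapped in either genotype. The log2 difference between genotypes was -0.87 ± 0.27 after cryoinjury (limma, adjusted p = 0.873), -0.69 ± 0.27 after sham operation (adjusted p = 0.797; -0.44 without mutant sham 1) and -0.78 ± 0.19 over both (adjusted p = 0.262; exact permutation p = 0.005).

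The enoyl-CoA isomerase gene eci1 ranged from 16.2 to 76.4 FPKM in mutant libraries, against 54.2 to 92.3 FPKM in wild-type libraries, and its log2 difference over both injury states, -0.85, was larger than that of ech1 but with overlapping groups. The mitochondrial dienoyl-CoA reductase gene decr1 ranged from 11.6 to 46.0 FPKM in mutant libraries, against 31.6 to 60.2 FPKM in wild-type libraries. Its peroxisomal counterpart decr2 was at 0.75 to 4.24 FPKM in mutant libraries, against 2.94 to 6.22 FPKM in wild-type libraries, and with acad11 it was the gene lying wholly above sham after cryoinjury in wild type. All 3 overlapped between the genotypes in either injury state.

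Electrons from the dehydrogenases pass through the electron transfer flavoprotein, with subunits from etfa and etfb, and its ubiquinone oxidoreductase from etfdh. The ranges overlapped in all 4 comparisons for these 3 genes. Levels of etfb were 176, 165 and 195 FPKM in mutant cryoinjury and 193, 196 and 267 FPKM in mutant sham hearts, against 201, 206 and 145 FPKM in wild-type cryoinjury and 294, 202 and 208 FPKM in wild-type sham hearts. Levels of etfa ranged from 69.3 to 138 FPKM in mutant libraries, against 87.2 to 190 FPKM in wild-type libraries. Those of etfdh ranged from 13.8 to 47.9 FPKM in mutant libraries, against 32.9 to 56.9 FPKM in wild-type libraries.

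Peroxisomes shorten very long and branched chains. Their oxidase gene acox3 was at 3.36 to 5.66 FPKM in mutant libraries, against 4.63 to 6.64 FPKM in wild-type libraries, and their thiolase gene acaa1 at 3.64 to 14.5 FPKM in mutant libraries, against 11.5 to 15.4 FPKM in wild-type libraries. Both overlapped in all 4 comparisons.

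The regulators that could be tested overlapped between the groups. Of the 2 genes for PPAR alpha, pparaa was at 21.3, 7.22 and 9.97 FPKM in mutant cryoinjury and 7.19, 7.68 and 9.84 FPKM in mutant sham hearts, against 6.68, 7.93 and 9.63 FPKM in wild-type cryoinjury and 8.45, 16.6 and 7.00 FPKM in wild-type sham hearts. The other, pparab, lay at 0.16 to 1.52 FPKM in mutant libraries, against 0.42 to 1.70 FPKM in wild-type libraries, and was not tested. The co-activator gene ppargc1a was at 11.5, 1.96 and 2.49 FPKM in mutant cryoinjury and 6.68, 3.59 and 8.29 FPKM in mutant sham hearts, against 6.14, 4.70 and 7.29 FPKM in wild-type cryoinjury and 12.2, 7.89 and 4.16 FPKM in wild-type sham hearts. The log2 difference of ppargc1a was below 0 in all 4 comparisons, between -0.28 and -0.46, and that of pparaa below 0 in sham hearts between genotypes and in wild type for injury, and above 0 in the other 2. Groups overlapped for both genes in all 4, and mutant cryoinjury 1 held the highest pparaa of all 12 libraries.

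Averaged over the other factor, single genes could also be tested exactly, with 34 genes and 2 comparisons, 68 tests in all and p-values left unadjusted. Between genotypes 14 genes had an exact permutation p under 0.05, of which 13 were lower in mutants, against 4.87% of all tested genes, and acsl4a was higher, against 4.51%. The smallest possible p of 0.005 was reached by acsl1b, cpt1ab, acad11, hadhaa and ech1, all lower in mutants, against 0.723% of all tested genes in that direction. None of the 34 reached it higher, against 0.673%. These genes did not overlap between genotypes in either injury state. Such separation fixes the p at its smallest value, so here it adds nothing to the separation itself. Between cryoinjury and sham 5 genes had an exact permutation p under 0.05, all lower after cryoinjury, against 1.82% of all tested genes lower and 6.8% higher, namely cpt1ab (p = 0.005), cpt1b (p = 0.015), acadm (p = 0.025), etfb (p = 0.035) and fabp3 (p = 0.04). The smallest p was reached lower by 0.193% of all tested genes in that comparison and higher by 0.78%. An exact test of 3 libraries against 3 cannot go below 0.1, so none is given for single comparisons.

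Whether the response to injury differed between mutant and wild type was tested as a difference of differences. No gene of the 13969 passed by adjusted p (limma, 0.00%), and none of the 34 fatty acid oxidation genes had an unadjusted p under 0.05, against 1.6% of all genes lower and 0.336% higher. The median difference of responses was -0.06 for these genes and -0.17 for all genes, with 19 of 34 below 0 against 71.7% of all genes. Its sign turned under the median-of-ratios rescaling, to 0.14, and no direction is read from it.

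The medians over the fatty acid oxidation genes rested partly on single libraries. Relative to the mean of wild-type sham hearts they were -0.87, -1.43 and -0.24 in mutant cryoinjury libraries and -1.08, -0.32 and -0.03 in mutant sham libraries. In wild type they were -0.33, -0.15 and -0.43 after cryoinjury and 0.19, -0.11 and -0.04 after sham operation. Mutant cryoinjury 3 and mutant sham 3 thus lay inside the wild-type range of their injury state. Without the 2 ribosome-rich libraries, 27 of 35 tested genes stood lower in mutant sham hearts than in wild type (median -0.18, all genes 0.19) and 25 of 35 in mutant cryoinjury hearts (median -0.30, all genes -0.08). For injury it was then 27 of 35 in mutants (median -0.23, all genes -0.08). In wild type the injury median ran from -0.43 to -0.20 as each library was left out.

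**Figure D5:**
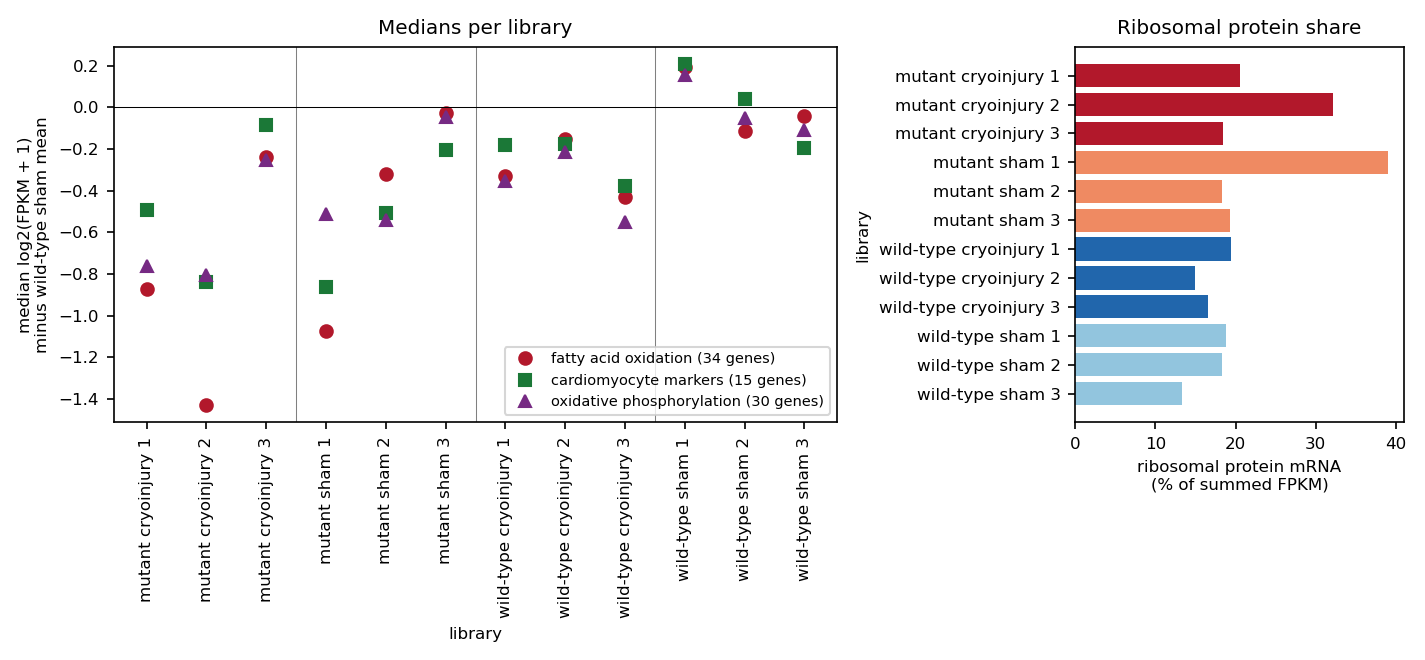
Left, the median of log2(FPKM + 1) minus the wild-type sham mean in each library, for the fatty acid oxidation genes, the cardiomyocyte markers and the oxidative phosphorylation genes. Right, the share of ribosomal protein mRNA, 32.2% in mutant cryoinjury 2 and 39.0% in mutant sham 1; the same libraries have the lowest fatty acid oxidation medians, -1.43 and -1.08.

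Heart muscle markers also stood lower in 3 of the 4 comparisons, the exception being injury in mutants. For genotype in cryoinjured hearts, however, their median was close to that of all genes. In whole hearts, fewer cardiomyocytes and less mRNA per cardiomyocyte cannot be told apart. The summed FPKM of 15 cardiomyocyte markers was 45349 to 77756 in mutant cryoinjury and 51274 to 74588 in mutant sham hearts, against 58268 to 77415 in wild-type cryoinjury and 80943 to 95660 in wild-type sham hearts. The median marker difference between mutant and wild type was -0.67 in sham hearts, with 12 of 15 lower. Over all tested genes it was 0.07, with 41.3% lower. In cryoinjured hearts the markers had -0.18, with 12 of 15 lower, against -0.11 and 64.9% over all genes. The marker myh6 went the other way, with differences of 2.53 in sham and 1.78 in cryoinjured hearts. It was at 178, 86.5 and 258 FPKM in mutant cryoinjury and 73.2, 184 and 221 FPKM in mutant sham hearts. In wild-type hearts myh6 was at 10.8, 254 and 32.6 FPKM after cryoinjury and 5.09, 14.7 and 165 FPKM after sham operation. For injury the marker median was 0.09 in mutants, where 9 of 15 were higher while the fatty acid oxidation median was -0.26. In wild type the marker median was -0.26, with 13 of 15 lower. When libraries were scaled to these markers, all genes had median differences between genotypes of 0.45 in sham and 0.09 in cryoinjured hearts. For injury the all-gene medians were then 0.02 in mutants and 0.38 in wild type. The scaling was chosen after seeing the data. With it the fatty acid oxidation genes had a median between genotypes of -0.02 in sham hearts, with 18 of 34 lower. In cryoinjured hearts it was -0.38, with 26 of 34 lower. For injury their median was -0.28 in mutants and -0.06 in wild type. Their summed level per 100 FPKM of the markers was 3.97, 3.05 and 3.78 FPKM in mutant cryoinjury and 3.82, 6.16 and 5.09 FPKM in mutant sham hearts, against 3.69, 4.73 and 4.56 FPKM in wild-type cryoinjury and 4.45, 4.38 and 4.69 FPKM in wild-type sham hearts.

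Other tissue markers also differed between the groups. Summed smooth muscle markers, 7 genes, were at 900 to 1871 FPKM in mutant cryoinjury and 828 to 1396 FPKM in mutant sham hearts, against 2360 to 3892 FPKM in wild-type cryoinjury and 1792 to 2177 FPKM in wild-type sham hearts. Macrophage and leukocyte markers, 13 genes, summed to 640 to 1121 FPKM in mutant cryoinjury and 144 to 1781 FPKM in mutant sham hearts, against 426 to 943 FPKM in wild-type cryoinjury and 231 to 382 FPKM in wild-type sham hearts. Fibroblast and matrix markers, also 13, summed to 1049 to 1296 FPKM in mutant cryoinjury and 146 to 1819 FPKM in mutant sham hearts, against 1044 to 1705 FPKM in wild-type cryoinjury and 192 to 525 FPKM in wild-type sham hearts. The top of both mutant sham ranges was mutant sham 2, whose sums of these 2 lists were the highest of all 12 libraries. Mutant sham 3 had 548 FPKM of the macrophage and leukocyte markers and 715 FPKM of the fibroblast and matrix markers. Erythrocyte markers, 8 genes, made up 5.84% to 8.27% of the summed FPKM in mutant cryoinjury and 2.38% to 7.64% in mutant sham hearts. In wild-type hearts they made up 4.71% to 12.9% after cryoinjury and 1.94% to 16.2% after sham operation. The part of all these markers in the results was not tested. Of markers of other tissues that oxidise or store fatty acids, 6 of 13 for liver, 4 of 13 for fast skeletal muscle and 2 of 7 for fat were under 1 FPKM in every library, plin1, the lipid droplet coat gene of fat cells, among the last. Others of these lists were abundant: fabp11a, a fatty acid binding protein gene of the fat list, was at 574 to 1712 FPKM in mutant libraries, against 818 to 1672 FPKM in wild-type libraries, and cfd, the complement factor D gene of the same list, at 124 to 266 FPKM, against 89.1 to 175 FPKM. The transferrin gene tfa of the liver list was at 13.4 to 142 FPKM in mutant libraries, against 10.1 to 111 FPKM in wild-type libraries. From the same list, fabp10a was at 0.22 to 2.37 FPKM in mutant cryoinjury and 3.42 to 15.1 FPKM in mutant sham hearts. In wild-type hearts fabp10a was at 0.23 to 0.46 FPKM after cryoinjury and 0 to 20.15 FPKM after sham operation. Of the 3 tested liver genes, 2 were lower and 1 was higher after cryoinjury in either genotype. The fast skeletal muscle list, led by ckma, a creatine kinase gene, summed to 565 to 1122 FPKM in mutant cryoinjury and 152 to 645 FPKM in mutant sham hearts, against 857 to 1343 FPKM in wild-type cryoinjury and 1064 to 1921 FPKM in wild-type sham hearts. Most of that sum was ckma in every library. In wild type most other tested genes of the list went the other way from ckma after injury. In mutants ckma and the other tested genes were all higher on average after injury. For cryoinjury against sham, 5 of its 6 tested genes were higher in wild type, with a median log2 difference of 1.09. In mutants 6 of 6 were higher, with a median of 2.30. Over all tested genes these medians were 0.19 and 0.01. Over both genotypes 2 genes of this list were called higher after cryoinjury by adjusted limma p.

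The genes of oxidative phosphorylation, which takes up the electrons that fatty acid oxidation releases, lay lower in the same comparisons. Of 30 nuclear-encoded subunit genes, 29 were lower in mutant than in wild-type sham hearts, with a median log2 difference of -0.35, and 25 in cryoinjured hearts, with -0.18. Of all tested genes, 41.3% and 64.9% were lower in these comparisons, with medians of 0.07 and -0.11. After cryoinjury 27 were lower than after sham operation in mutants, against 47.5% of all genes, with a median of -0.21 against 0.01. In wild type 28 were lower, against 25.7% of all genes, with a median of -0.40 against 0.19. None passed by adjusted p in limma.

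Other genes of fatty acid supply and oxidation, 37 tested of 56 listed, were closer to all genes. Their median difference between mutant and wild type was -0.23 in sham hearts, with 29 of 37 lower, against 0.07 and 41.3% over all genes. In cryoinjured hearts it was -0.28, with 25 of 37 lower, against -0.11 and 64.9%, so that count was near the share over all genes. For injury the median was 0.00 in mutants and -0.03 in wild type, against 0.01 and 0.19 over all genes. None passed by adjusted p, and over both injury states 9 were lower in mutants, against 5.06% of all tested genes, and 1 higher, against 4.6%, at an unadjusted limma p under 0.05. The lowest p was that of crot, the peroxisomal carnitine octanoyltransferase gene. It was at 2.28, 4.25 and 4.69 FPKM in mutant cryoinjury and 3.46, 6.09 and 4.54 FPKM in mutant sham hearts, against 6.60, 9.67 and 8.37 FPKM in wild-type cryoinjury and 8.05, 7.90 and 9.98 FPKM in wild-type sham hearts. All 6 mutant libraries were thus below all 6 wild-type libraries, as for 0.43% of all tested genes and 0 of the 34 fatty acid oxidation genes. The log2 difference of crot was -0.88 ± 0.18 (limma, adjusted p = 0.215). Next came acacb, an acetyl-CoA carboxylase gene whose product makes the malonyl-CoA that restrains carnitine palmitoyltransferase 1, at -0.42 ± 0.15 (adjusted p = 0.425).

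The lipoprotein lipase gene lpl, whose product frees fatty acids from circulating lipoproteins, was at 43.3, 240 and 31.6 FPKM in mutant cryoinjury and 353, 25.7 and 44.1 FPKM in mutant sham hearts, against 9.71 to 29.1 FPKM in wild-type hearts. Its 2 high values were in the ribosome-rich libraries, and its difference over both injury states was 1.85 ± 0.64 (limma, adjusted p = 0.425). For injury over both genotypes the lowest p was that of acsl4b, a paralog of acsl4a, at 6.48, 3.79 and 3.85 FPKM in mutant cryoinjury and 1.72, 3.85 and 1.38 FPKM in mutant sham hearts, against 4.29, 2.52 and 2.99 FPKM in wild-type cryoinjury and 1.5, 2.04 and 0.61 FPKM in wild-type sham hearts. Its log2 difference was 0.85 ± 0.23 (adjusted p = 0.249). Then came cratb, a carnitine acetyltransferase gene, at 0.28 ± 0.12 (adjusted p = 0.497), and mcat, of mitochondrial fatty acid synthesis, at -0.30 ± 0.17 (adjusted p = 0.593).

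Regulators and targets of PPAR and PGC-1, 36 tested of 42 listed, had medians of -0.03 and -0.09 between genotypes in sham and cryoinjured hearts and of 0.05 and 0.10 for injury in mutants and in wild type. None passed by adjusted p. Over both injury states the lowest p-values in limma were those of rxrgb, a retinoid X receptor gene, at 0.61 ± 0.17 (adjusted p = 0.347), klf15, a transcription factor of muscle lipid use in mammals, at 0.63 ± 0.27 (adjusted p = 0.498), and pdk4. The last encodes a pyruvate dehydrogenase kinase that spares glucose when fatty acids are burned, and is a known PPAR target in mammals. It was at 13.0, 5.52 and 23.9 FPKM in mutant cryoinjury and 11.8, 21.4 and 19.3 FPKM in mutant sham hearts, against 15.8, 24.2 and 22.9 FPKM in wild-type cryoinjury and 27.2, 23.8 and 24.4 FPKM in wild-type sham hearts (-0.63 ± 0.28, adjusted p = 0.513). Over both genotypes the lowest for injury were rxrgb at 0.41 ± 0.17 (adjusted p = 0.468), oxct1a, of ketone body use, at 0.69 ± 0.35 (adjusted p = 0.554), and rxraa, another retinoid X receptor gene, at 0.41 ± 0.26 (adjusted p = 0.645).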

How the data were processed

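Poly-A RNA libraries of 12 whole-heart samples, 3 per group, were sequenced on the BGISEQ platform, per the labels' protocols. The authors deposited FPKM per gene and library. HISAT, Bowtie2 and the build GRCz11 were used per the submitters' processing notes; tool versions and the program behind the FPKM were not given in the sources used here. FPKM values scale with the library total, so where abundant mRNAs take a larger share, all others stand lower.

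Of the value columns, 13 were matched to samples by name; mutant sham 3 had 2, which were averaged and counted as 1 sample, and 1 column that matched no sample was not used. Older names in the marker and pathway lists were matched through a RefSeq gene table (GRCz12tu, names only). Tests were made on log2(FPKM + 1), a scale on which changes of low genes look smaller, with limma 3.58.1 in R 4.3.3 (1 mean per group over all 12 samples, an intensity trend, two-sided, Benjamini-Hochberg over all genes with a mean of at least 1 FPKM); the code was tested on simulated data. Single genes were also tested by exact permutation within genotype or injury state. Named from the other pathway lists were the 3 genes with the lowest p in each averaged comparison. Fatty acid oxidation genes are all named. In the 4 comparisons of 2 groups, adjusted p-values are given for those with an unadjusted limma p under 0.05. In the averaged comparisons they are given for only some of these. The genes and lists were chosen with earlier results of these data known. The alternatives were another pseudocount, filter or scaling, library weights, a replicate block and libraries left out.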

Additional observations from a re-analysis of the deposited data

How the results depend on the processing

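Recomputed for single genes were the differences with an unadjusted p under 0.05 as reported; all kept their sign, 755 recomputed values stayed on the same side of the adjusted threshold and 2 moved past it, both of cpt1ab for injury over both genotypes, so that 1 fatty acid oxidation gene was called there with the median-of-ratios rescaling (adjusted p 0.0436) and 1 with library weights (adjusted p 0.0222); the cause was not tested. None of these differences was called as reported, so the same side means uncalled. They were picked by their p in these same data, so a kept sign says little. Changes in size do not enter that count. For acadvl in cryoinjured hearts the genotype difference went from -1.08 to -0.59 without mutant cryoinjury 2. The median over the genes for injury in mutants was -0.75 with library weights. For genotype in sham hearts it was -0.0173, against 0.45 over all genes, with scaling to the cardiomyocyte markers, an alternative chosen after seeing the data. With a replicate block the medians were the same, 0 genes were called, and cpt1ab for injury over both genotypes stayed at -0.72 with an adjusted p of 0.151. Of 18 same-numbered pairs, 3 had a correlation above 0.1. Pairs of unlike number were not compared, so whether the numbers pair the libraries is not settled. As single libraries were left out, the median ran from -0.43 to -0.20 for injury in wild type, from -0.64 (without mutant sham 1) to 0.04 (without mutant cryoinjury 2) for injury in mutants, from -0.63 to -0.18 (without mutant sham 1) for genotype in sham hearts, and from -0.86 (without mutant cryoinjury 3) to -0.30 (without mutant cryoinjury 2) for genotype in cryoinjured hearts. It ran from -0.47 (without mutant cryoinjury 3) to -0.09 (without mutant cryoinjury 2) for injury over both genotypes, from -0.61 to -0.34 for genotype over both injury states, and from -0.35 to 0.32 for the difference of responses; 0 genes of the pathway were called in any of these. Other genes did turn: the number below 0 for injury in mutants was 14 of 35 without mutant cryoinjury 2, against 29 of 34 with all libraries, and for genotype in sham hearts 18 of 34 with scaling to the cardiomyocyte markers, against 32 of 34. The median-of-ratios rescaling shifted the median of all genes for injury in wild type to -0.03, against 0.19 as deposited, and that of the fatty acid oxidation genes to -0.55. Depth is known only in relative terms, and the median SD within groups was 0.492 on the log2 scale for the fatty acid oxidation genes, against 0.344 over all tested genes, which limits what 3 libraries per group can show.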
